A study of Mus musculus with 9 samples.

Results

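The genes described here are 10 genes of MHC class II antigen presentation, taken by their symbols from the FPKM table, in which all 10 are among the 55322 genes listed. They are *Ciita*, the regulator of the pathway, *Cd74*, which encodes the invariant chain, *H2-Aa*, *H2-Ab1* and *H2-Eb1*, which encode chains of the peptide-presenting molecules, *H2-DMa*, *H2-DMb1* and *H2-DMb2*, which encode chains of the peptide editor H2-DM, and *H2-Oa* and *H2-Ob*, which encode its inhibitor H2-O. RNA was sequenced from 3 groups of cells of WT C57BL/6 mice, with 3 libraries in each group. CD11b- and CD11b+ B cells came from the BM 48 h after an intraperitoneal injection of LPS at 5 mg/kg, and peritoneal macrophages (PMs), sorted as CD11b+F4/80+ cells, came from untreated mice. The B cells were sorted by surface markers that included B220 after cells bearing CD3, CD4, CD8, Gr-1, NK1.1 or TER119 had been removed. The comparison of the B cell groups is therefore between cells of LPS-treated mice, whereas cell type, tissue and LPS cannot be told apart in a comparison of B cells with PMs. No B cells of untreated mice were analysed here. The p-values rest on the spread between these libraries, which the sources used here do not tie to single mice.

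MHC class II molecules are heterodimers of an alpha and a beta chain that show peptides from endocytosed proteins to CD4+ T cells. The invariant chain fills their groove after synthesis, lysosomal proteases cut it down to a fragment named CLIP, and H2-DM exchanges CLIP for other peptides, while H2-O, found mainly in B cells, binds H2-DM and restrains it. Most of the genes are transcribed together because CIITA, which does not bind DNA itself, is recruited by factors on shared promoter elements, and B cells keep the pathway on constitutively, whereas most macrophages raise it in response to interferon gamma.

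The depth behind the values was 18014658 to 29208721 reads on genes in PMs, 32056102 to 34895579 in CD11b- B cells and, in the CD11b+ B cells, 26174718 to 35251215. The summed FPKM (fragments per kilobase of exon, scaled to the depth of the library) of 16 B cell markers was 14195 to 17310 in the B cell libraries, and 291, 152 and 170 in PMs. The sums of the B cell groups overlapped, but 7 of the 16 markers were lower in every CD11b+ library than in every CD11b- library and 0 were higher (6.32 and 8.63% of all genes), with a median log2 fold change of -0.23 and 0 called. *Itgam*, which encodes CD11b, had an FPKM of 251 to 358 in PMs, 1.31 to 1.92 in CD11b+ B cells and, in CD11b- B cells, 0.251 to 0.869. The summed FPKM of 11 neutrophil markers was 215 to 1542 in CD11b+ B cells as against 1.77 to 3.004 in CD11b- B cells, and that of 12 monocyte and macrophage markers was 134 to 313 and 52.8 to 58.2, against 20179 to 54820 in PMs. The library numbered 3 of each B cell group stood apart by 11 B cell precursor markers, with a sum of 1415 in CD11b- B cells and 635 in CD11b+ B cells, against 304 to 419 in the other 4. Of the neutrophil markers *S100a9*, *S100a8* and *Retnlg* were called between the B cell groups, all higher in the CD11b+ group, as were 0.0689% of all genes. Results are given without these libraries where that changed a call, and the part that these other cells or transcripts had in the results was not tested.

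Per length, *Cd74* was the most abundant of the 10 genes in every library. By mean FPKM its place among all 55322 genes was 2 in CD11b- B cells and 5 in the CD11b+ B cells, and 38 in PMs. In both B cell groups the order went on with *H2-Ab1*, *H2-Eb1*, *H2-Aa*, *H2-DMb2* and *H2-Ob*, and *Ciita* was last. In PMs *H2-Ab1*, *H2-Eb1* and *H2-Aa* also came next, with overlapping libraries, but *H2-DMb2*, *H2-Ob*, *Ciita* and *H2-Oa* closed the order. *H2-DMb2* lay at place 73 in CD11b- B cells and at 3093 in PMs, and *H2-Oa* at 413 and 10694. Within the order of CD11b- B cells only the neighbours *H2-Oa* and *H2-DMb1* overlapped, whereas in CD11b+ B cells *H2-Eb1* overlapped *H2-Aa*, and *H2-Ob*, *H2-DMa* and *H2-DMb1* each overlapped the next, *H2-Oa* being the last of that run. Together the 10 genes took 0.343, 0.708 and 0.542% of the gene reads in the PM libraries, 2.97, 3.35 and 2.87% in CD11b- B cells and 2.89, 3.06 and 2.98% in CD11b+ B cells. *Cd74* alone took 1.73 ± 0.156% (SD, n = 3) of the reads in CD11b- B cells. The B cell libraries all lay above the PM libraries in this share, and the B cell groups overlapped. The coefficient of variation between libraries was 18.5 to 97.6% over the 10 genes in PMs, 6.51 to 16.8% in the CD11b- group and 2.54 to 20.4% in the CD11b+ group.

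**Figure D1:**
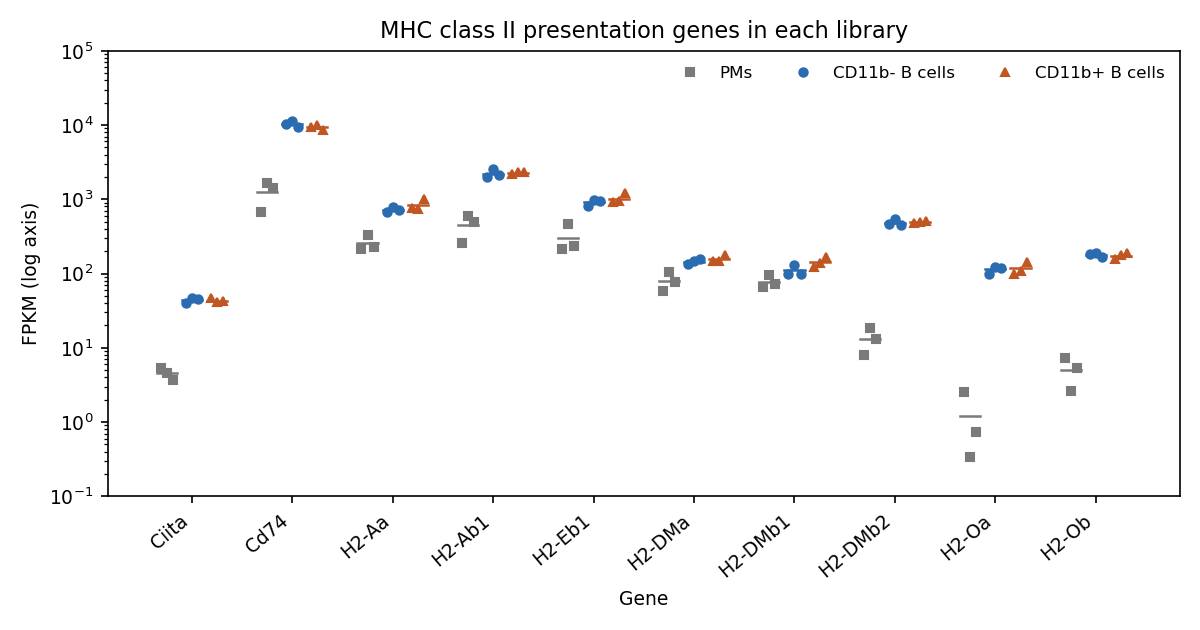
FPKM (log axis) of the 10 genes in each of the 9 libraries, with squares for PMs, circles for CD11b- B cells, triangles for CD11b+ B cells and a short line at each group mean. The B cell groups lie over each other for every gene, and the distance to PMs is widest for *H2-DMb2*, *H2-Oa* and *H2-Ob* and narrowest for *H2-DMa* and *H2-DMb1*.

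Between the B cell groups none of the 10 genes passed the test, and for all 10 the libraries of the groups overlapped. The test was limma on log2(FPKM + 1), two-sided, with adjustment over all 21778 genes tested and a threshold of 0.05. By this test 15 genes, or 0.0689%, were higher in CD11b+ B cells and 0, or 0%, were lower. Without adjustment 0 of the 10 genes were under 0.05, as against 7.68% of all genes. Separate groups were found for 8.63% of all genes with CD11b+ B cells higher and for 6.32% with CD11b+ B cells lower. Of the 10 log2 fold changes 7 were above 0, and their median of 0.03 was that of all genes tested, also 0.03. They ranged from -0.15 for *Cd74* (95% confidence interval -1.17 to 0.88) to 0.37 for *H2-DMb1* (-0.04 to 0.78, adjusted p = 0.679 by limma, the lowest of the 10). A p above the threshold does not show that the groups were alike. In limma the variance of each gene is drawn toward that of genes of similar level, so an interval is not the spread of that gene alone. For *Ciita* the interval ran from 0.805-fold to 1.21-fold and for *H2-Ob* from 0.775-fold to 1.22-fold, whereas for *Cd74* it ran from 0.443-fold to 1.84-fold. The coefficient of variation of *Cd74* was 9.01% in CD11b- and 8.57% in CD11b+ B cells, and its own libraries set only part of that width. Of genes changed by 1 on the log2 scale in simulated libraries of these groups the test recovered 7%, and of genes changed by 2 it recovered 86%. A change of 1 was thus mostly missed in that simulation. It gave all genes the same dispersion and drew the changed genes from those with mean FPKM of 1 or more, so these shares are not those of the 10 genes. The counts of reads gave 0 of the 10 genes with edgeR, which called 42 genes higher and 0 lower, and 0 with DESeq2, which called 328 higher and 64 lower.

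Against PMs nearly the whole pathway was higher in B cells. The same test found 9 of the 10 genes higher in CD11b- B cells, all except *H2-DMb1*, and none lower, among 20985 genes of which 25.8% were called higher and 11% lower. All 10 were called higher in CD11b+ B cells, among 22102 genes of which 21.5% were called higher and 8.78% lower. Without adjustment 45.8% of all genes were under 0.05 in the CD11b- comparison and 41.2% in the CD11b+ comparison. The 3 B cell libraries lay above the 3 PM libraries for all 10 genes in both comparisons, as they did for 36.1% of all genes in CD11b- B cells and 34.3% in CD11b+ B cells. The median log2 fold change of the 10 genes was 2.6997 for CD11b- and 2.703 for CD11b+ B cells, and that of all genes tested was 0.24 and 0.25. These comparisons share the PM libraries, so their agreement is not independent. In such bulk samples fewer cells of a type and less RNA per cell cannot be told apart. FPKM is relative to all reads on genes, and scaling the libraries by their median ratio instead moved the comparisons with PMs by -0.56 and -0.57 on the log2 scale. On that scale 7 of the 10 genes stayed called in each comparison, *H2-Eb1*, *H2-DMa* and *H2-DMb1* being below the threshold, and over all genes the calls went from 5404 higher and 2306 lower to 3330 and 3152 in CD11b- B cells and from 4760 and 1940 to 2766 and 2661 in CD11b+ B cells.

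**Figure D2:**
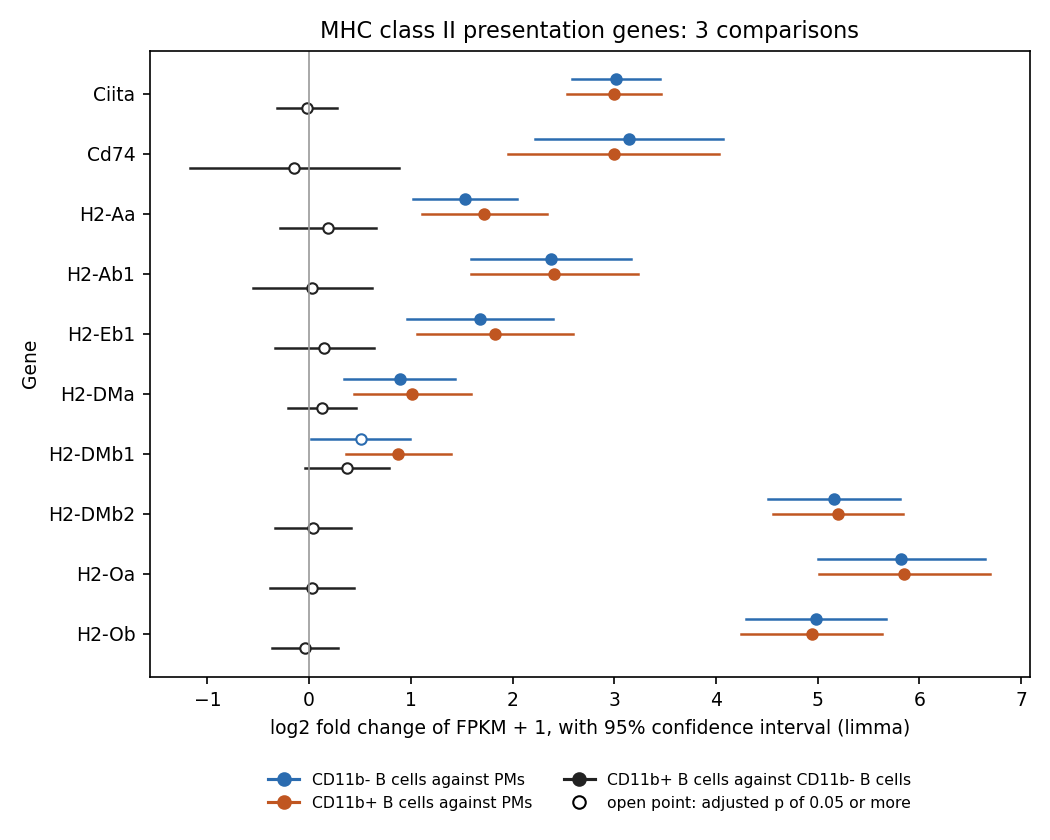
Log2 fold change of FPKM + 1 with its 95% confidence interval (limma, 3 libraries against 3) for the 10 genes in CD11b- B cells against PMs, CD11b+ B cells against PMs and CD11b+ against CD11b- B cells. Filled points have an adjusted p under 0.05. The intervals between the B cell groups all cross 0, and those against PMs are centred from 0.50 for *H2-DMb1* to 5.85 for *H2-Oa*.

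*Ciita* (ENSMUSG00000022504, chromosome 16, 10480059 to 10528418 on GRCm38) encodes the coactivator that drives transcription in the pathway. Its FPKM was 5.41, 4.62 and 3.72 in PMs, 40.2, 46.6 and 45.4 in CD11b- B cells, and 46.6, 41.2 and 42.2 in CD11b+ B cells. The PM libraries were all far below the B cell libraries, and the B cell groups overlapped. The log2 fold change against PMs was 3.02 (standard error 0.18, adjusted p = 1.74e-05 by limma) in CD11b- B cells and 2.998 (0.20, 2.22e-05) in CD11b+ B cells. The ratio of the means was 9.61 and 9.45. *Ciita* overlaps *Dexi* on the other strand, which had a mean FPKM of 2.90 to 5.75 in the groups, and the sources used here do not say whether the counting used the strand.

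CIITA acts on promoters that carry a set of elements named W/S, X and Y, bound by RFX, CREB and NF-Y. Promoter sequences from RefSeq (GRCm38.p6, 250 bases before to 50 after the start) matched 7 of the 10 genes, namely *H2-Aa*, *H2-Eb1*, *H2-DMa*, *H2-DMb1*, *H2-DMb2*, *H2-Oa* and *H2-Ob*. They were searched on both strands for AACNNATG, a core of the X element, and for GATTGG, the inverted CCAAT core of the Y element. The first was found in 8.86% of all 32851 promoters and in 4 of the 7 genes, and the second in 16.1% and in all 7, though for *H2-DMa* only at the second of its 2 starts. Both cores in this order, 25 to 32 bases apart from start to start, were found in 8 of the 32851 promoters (0.0244%), and 4 of those 8 belong to *H2-Eb1*, *H2-DMb1*, *H2-DMb2* and *H2-Ob*. The cores and their distance were set from elements known in MHC class II promoters, so these counts are no independent support. For *H2-DMa* the Y core lies too near the upstream end of the promoter sequence for a full window. The windows of 90 bases around the Y core are shown for the other 6 genes, of which 4 have both cores. Each is printed 5′ to 3′ on the strand of the gene, with the matches of both cores in capitals, and each lies wholly upstream of the RefSeq start, although GENCODE M21 begins *H2-DMb1*, *H2-DMb2* and *H2-Oa* farther upstream. The windows lie on chromosome 17, at chr17:34305745-34305834 (+) for *H2-Eb1*, chr17:34153067-34153156 (+) for *H2-DMb1*, chr17:34145096-34145185 (+) for *H2-DMb2*, chr17:34238785-34238874 (+) for *H2-Ob*, chr17:34287845-34287934 (-) for *H2-Aa* and chr17:34092273-34092362 (+) for *H2-Oa*.
H2-Eb1: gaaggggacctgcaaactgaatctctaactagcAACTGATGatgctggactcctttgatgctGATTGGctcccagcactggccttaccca
H2-DMb1: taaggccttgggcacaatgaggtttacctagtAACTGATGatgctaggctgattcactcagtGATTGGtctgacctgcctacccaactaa
H2-DMb2: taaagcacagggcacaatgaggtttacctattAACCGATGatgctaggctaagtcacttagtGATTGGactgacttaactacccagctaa
H2-Ob: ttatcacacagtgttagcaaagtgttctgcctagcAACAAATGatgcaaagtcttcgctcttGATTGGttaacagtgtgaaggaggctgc
H2-Aa: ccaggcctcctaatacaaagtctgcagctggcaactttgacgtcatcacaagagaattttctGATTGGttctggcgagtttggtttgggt
H2-Oa: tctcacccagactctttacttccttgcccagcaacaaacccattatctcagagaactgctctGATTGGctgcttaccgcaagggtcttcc
The starts of the cores were 29 bases apart in *H2-Eb1*, 30 in *H2-DMb1* and *H2-DMb2*, and 27 in *H2-Ob*. *H2-Aa* and *H2-Oa* had no match to AACNNATG in these windows, which says only that these letters are not there. The genes with both cores include *H2-DMb1*, which differed least between PMs and B cells among the 10, and *H2-DMb2*, which differed most after *H2-Oa*. The promoters of this pair were 61.99% identical over the aligned length. The other pairs of the 6 promoters were 47.4 to 54.7% identical.

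Of the factors that bind these elements, *Rfx5* and *Nfyb* were higher in B cells under every alternative, and the calls of 4 others held in only some of them. *Nfya*, the A subunit of NF-Y, was called in none of 17 alternatives in either comparison with PMs (log2 fold change 0.29 and 0.52, adjusted p = 0.394 and 0.190 by limma). Of 7 genes for RFX, CREB and NF-Y subunits, the test against PMs called 6 higher and none lower in CD11b- B cells (median log2 fold change 1.08, against 0.24 over all genes), and 4 in CD11b+ B cells (median 0.95, against 0.25). Over all genes the shares called higher were 25.8 and 21.5%, and those called lower were 11 and 8.78%. With median-ratio scaling 2 of the 7 were called higher in each comparison, as were 15.9 and 12.6% of all genes. *Rfx5*, the large RFX subunit, had an FPKM of 0.666, 0.585 and 0.938 in PMs, 10.1, 13.0 and 10.8 in CD11b- B cells, and 9.30, 8.03 and 6.82 in CD11b+ B cells. All 3 groups were separate, with CD11b+ B cells in between. The log2 fold change of *Rfx5* was 2.83 (adjusted p = 9.97e-05 by limma) for CD11b- B cells against PMs, 2.38 (0.000472) for CD11b+ B cells against PMs, and -0.45 (95% confidence interval -0.86 to -0.04, adjusted p = 0.643) between the B cell groups. *Nfyb*, the B subunit of NF-Y, was higher in both B cell groups, each with a log2 fold change of 2.47 over PMs (adjusted p = 0.000158 in the CD11b- and 0.000156 in the CD11b+ group by limma). *Rfxank*, another RFX subunit, was 2.598-fold and 2.21-fold higher by mean FPKM, and *Creb1* was higher with a log2 fold change of 1.004 (adjusted p = 0.0134 by limma) in CD11b+ B cells. *Rfx5* and *Nfyb* were called in all 17 alternatives in both comparisons, whereas *Rfxank* was called in 14 of 17 for CD11b- B cells and in 10 for CD11b+ B cells, and *Creb1* in 16 and 15. Neither was called with median-ratio scaling. The CD11b- calls of *Rfxap*, the last RFX subunit, and *Nfyc*, the C subunit of NF-Y, held in 7 of 17 alternatives each, and not with median-ratio scaling, edgeR or DESeq2.

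*Cd74* (ENSMUSG00000024610, chromosome 18, 60803848 to 60812652) encodes the chaperone that guides new class II molecules to endosomes. Its FPKM was 676, 1652 and 1410.4 in PMs, 10361, 11194 and 9342 in CD11b- B cells, and 9378, 10070.2 and 8479.6 in CD11b+ B cells. PM replicate 1 was lowest, and the B cell groups overlapped. The mean was 8.27-fold higher than in PMs in the CD11b- group (log2 fold change 3.14, standard error 0.40, adjusted p = 0.000786 by limma) and 7.47-fold higher in the CD11b+ group (2.996, 0.45, 0.00184). The microRNA gene *Mir5107* overlaps *Cd74* on the same strand, and its mean FPKM of 11.2 in PMs, 124 in CD11b- B cells and 130.4 in CD11b+ B cells cannot be told apart from reads of *Cd74*.

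The chains that present peptide had smaller differences from PMs than their chaperone. *H2-Ab1* (ENSMUSG00000073421, chromosome 17, 34257689 to 34269419), the beta chain of I-A, had an FPKM of 258, 599 and 495 in PMs, 2025, 2521 and 2125 in CD11b- B cells, and 2162, 2306 and 2324 in CD11b+ B cells. *H2-Aa* (ENSMUSG00000036594, chromosome 17, 34282744 to 34287823), the alpha chain of I-A, had 211, 329 and 225 in PMs, 685, 787 and 711 in CD11b- B cells, and 755, 741 and 1011 in CD11b+ B cells. *H2-Eb1* (ENSMUSG00000060586, chromosome 17, 34305867 to 34316674), the beta chain of I-E, had 213, 459.9 and 236 in PMs, 817, 987 and 953 in CD11b- B cells, and 906, 959 and 1199.8 in CD11b+ B cells. For all 3 genes the B cell libraries were above every PM library and PM replicate 1 was the lowest. CD11b+ replicate 3, with the precursor transcripts, was the highest for *H2-Aa* and *H2-Eb1*. The mean of *H2-Ab1* was 4.93-fold higher than in PMs in the CD11b- group (log2 fold change 2.38, limma adjusted p = 0.00132) and 5.02-fold higher in the CD11b+ group (2.41, 0.00168). That of *H2-Eb1* was 3.03-fold (1.68, 0.00459) and 3.37-fold (1.83, 0.00472) higher. *H2-Aa* had the smallest difference of the 3, 2.85-fold (1.53, 0.00145) and 3.27-fold (1.72, 0.00212).

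The I-E alpha chain gene, *H2-Ea*, is defective in C57BL/6 mice, so that *H2-Eb1* has no partner there. *H2-Ea* had an FPKM of 0, 0 and 0.191 in PMs, 0.897, 0.885 and 0.512 in CD11b- B cells, and 1.48, 1.29 and 0.849 in CD11b+ B cells, far below *H2-Eb1* in every library. The neighbouring *H2-Eb2*, a related beta chain gene, had 0.0982, 0.505 and 0.307 in PMs, 6.91, 9.47 and 8.74 in CD11b- B cells, and 10.1, 10.1 and 17.5 in CD11b+ B cells. It was higher in both B cell groups than in PMs (log2 fold change 2.85 and 3.35, adjusted p = 0.000194 and 0.000168 by limma). Every CD11b+ library was above every CD11b- library, but the log2 fold change of 0.50 (95% confidence interval -0.05 to 1.05) did not pass the test (adjusted p = 0.676).

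H2-DM is a dimer of the alpha chain from *H2-DMa* and a beta chain from *H2-DMb1* or *H2-DMb2*, and these genes behaved differently from each other. *H2-DMa* (ENSMUSG00000037649, chromosome 17, 34119541 to 34139101) had an FPKM of 58.0, 106 and 76.1 in PMs, 133, 146 and 157 in CD11b- B cells, and 149, 147 and 179.8 in CD11b+ B cells. The groups did not overlap between PMs and B cells, with ratios of the means of 1.81 (log2 fold change 0.89, limma adjusted p = 0.0202) and 1.98 (1.01, 0.0172). Its call was lost in 8 of the 17 alternatives in each comparison, namely under median-ratio scaling, edgeR and DESeq2, without PM replicate 3, without any 1 of the B cell libraries compared, and without PM replicate 1 and the B cell library numbered 3 together. Without PM replicate 3 the adjusted p by limma was 0.0538 with CD11b- B cells and 0.0511 with CD11b+ B cells, and without 1 B cell library it was 0.0563 to 0.0741 and 0.0549 to 0.0584. *H2-DMa* overlaps *Brd2* on the other strand, which had an FPKM of 25.4 to 36.6 in B cells and 10.8 to 13.6 in PMs.

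*H2-DMb1* (ENSMUSG00000079547, chromosome 17, 34153072 to 34160230) had an FPKM of 65.0, 96.8 and 71.4 in PMs, 99.6, 131 and 99.2 in CD11b- B cells, and 122, 137 and 169 in CD11b+ B cells. The nearest libraries of PMs and CD11b- B cells were 96.8 and 99.2, and the log2 fold change of 0.50 did not pass the test (95% confidence interval 0.02 to 0.99, adjusted p = 0.0981 by limma). For CD11b+ B cells against PMs it was 0.87 (0.36 to 1.39, adjusted p = 0.0205). Under median-ratio scaling the first value turned to -0.05, with edgeR to -0.04 and with DESeq2 to -0.06, so that no direction holds for CD11b- B cells. Without PM replicate 2 it passed the test (0.67, adjusted p = 0.0400 by limma). In CD11b+ B cells the call was lost under median-ratio scaling, edgeR and DESeq2 (log2 fold change 0.31 to 0.35), without PM replicate 3 (adjusted p = 0.0649 by limma), without CD11b+ replicate 2 (0.0693) or 3 (0.0561), and without PM replicate 1 and CD11b+ replicate 3 together (0.0749). *H2-DMb2* (ENSMUSG00000037548, chromosome 17, 34143307 to 34151555), the neighbouring copy, had 8.07, 18.5 and 13.1 in PMs, 461, 544 and 452 in CD11b- B cells, and 483, 501 and 507 in CD11b+ B cells. This beta chain was thus the lower of the pair in every PM library and the higher in every B cell library. The mean was 36.7-fold higher than in PMs in the CD11b- group (log2 fold change 5.16, standard error 0.28, adjusted p = 8.63e-06 by limma) and 37.5-fold higher in the CD11b+ group (5.20, 0.28, 7.06e-06).

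The coding sequences of *H2-DMb1* and *H2-DMb2* have 786 bases each, the stop codon included, and were 95.9% identical, and the longest identical run of their transcripts was 221 bases. The sources used here do not give how reads that fit both were counted, and thus the split between them is uncertain. The study's methods give paired reads of 150 bases each. Of the windows of 150 bases in *H2-DMb1* transcripts, 4.71% also occurred in *H2-DMb2*, and 4.14% of those in *H2-DMb2* occurred in *H2-DMb1*. Of windows of 50 bases in *H2-DMb1*, 22.7% were shared. The coding stretch of 90 bases with the most differences is shown because it is where the copies can best be told apart. It covers coding bases 206 to 295 of each, at chr17:34155583-34155672 (+) for *H2-DMb1* and chr17:34147801-34147890 (+) for *H2-DMb2* on GRCm38 (GENCODE M21), and the capitals mark the 19 positions that differ.
H2-DMb1: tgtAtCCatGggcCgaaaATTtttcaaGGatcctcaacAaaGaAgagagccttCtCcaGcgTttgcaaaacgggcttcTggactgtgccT
H2-DMb2: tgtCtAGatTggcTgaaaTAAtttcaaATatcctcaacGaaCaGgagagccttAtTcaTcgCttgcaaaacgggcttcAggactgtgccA

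Besides *H2-DMb2*, the inhibitor genes differed most from PMs among the 10. *H2-Oa* (ENSMUSG00000024334, chromosome 17, 34092340 to 34095234), the alpha chain, had an FPKM of 2.56, 0.341 and 0.740 in PMs, 98.3, 124 and 119.9 in CD11b- B cells, and 99.7, 108 and 145 in CD11b+ B cells. The PM values rest on 65, 14 and 21 reads. The mean was 94.0-fold higher than in PMs in the CD11b- group (log2 fold change 5.82, standard error 0.35, adjusted p = 1.64e-05 by limma) and 96.6-fold higher in the CD11b+ group (5.85, 0.36, 1.63e-05). Without PM replicate 1 these ratios were 211 and 217. *H2-Ob* (ENSMUSG00000041538, chromosome 17, 34238903 to 34254414), the beta chain, had 7.22, 2.60 and 5.28 in PMs, 182, 189.9 and 167 in CD11b- B cells, and 156, 176 and 192 in CD11b+ B cells. Its mean was 35.7-fold (4.98, 0.29, 1.41e-05) and 34.7-fold (4.94, 0.30, 1.43e-05) higher. In both genes PM replicate 1, the PM library with the most B cell marker RNA, was the highest PM library. *H2-Oa* overlaps *BC051537* on the other strand, which had an FPKM of at most 2.46.

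Ratios between members within a library do not depend on how libraries were scaled. The FPKM of *H2-DMb1* over that of *H2-DMb2* was 8.05, 5.23 and 5.43 in PMs, 0.216, 0.241 and 0.219 in CD11b- B cells, and 0.252, 0.274 and 0.333 in CD11b+ B cells. It was thus 27.2-fold lower in CD11b- B cells and 21.5-fold lower in CD11b+ B cells than in PMs by the mean of log2 ratios, and it was 1.26-fold higher in the CD11b+ than in the CD11b- group, whose libraries did not overlap. The summed FPKM of *H2-Oa* and *H2-Ob* over that of the H2-DM genes was 0.0747, 0.0133 and 0.0375 in PMs, 0.405, 0.382 and 0.405 in CD11b- B cells, and 0.340, 0.362 and 0.393 in CD11b+ B cells. The inhibitor was thus 11.9-fold and 10.9-fold higher relative to H2-DM in the B cell groups, which overlapped each other, and without PM replicate 2 it was 7.51-fold and 6.89-fold higher. *Cd74* over the sum of *H2-Aa*, *H2-Ab1* and *H2-Eb1* was 0.989 to 1.48 in PMs, 2.47 to 2.94 in the CD11b- and 1.87 to 2.51 in the CD11b+ B cells. The ratio of *H2-Aa* to *H2-Ab1* was 0.456 to 0.818 in PMs and 0.312 to 0.435 in the B cells. That of *H2-Oa* to *H2-Ob* was 0.131 to 0.355 in PMs and 0.539 to 0.754 in the B cells. In all 5 ratios the B cell libraries lay on one side of the PM libraries, and only in that of *H2-DMb1* to *H2-DMb2* were the B cell groups separate. Of all genes taken singly, 8.63% were separate between the B cell groups with CD11b+ B cells higher and 6.32% with CD11b+ B cells lower. No p is given for these ratios, since an exact permutation test of 3 libraries against 3 cannot go below 0.1.

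**Figure D3:**
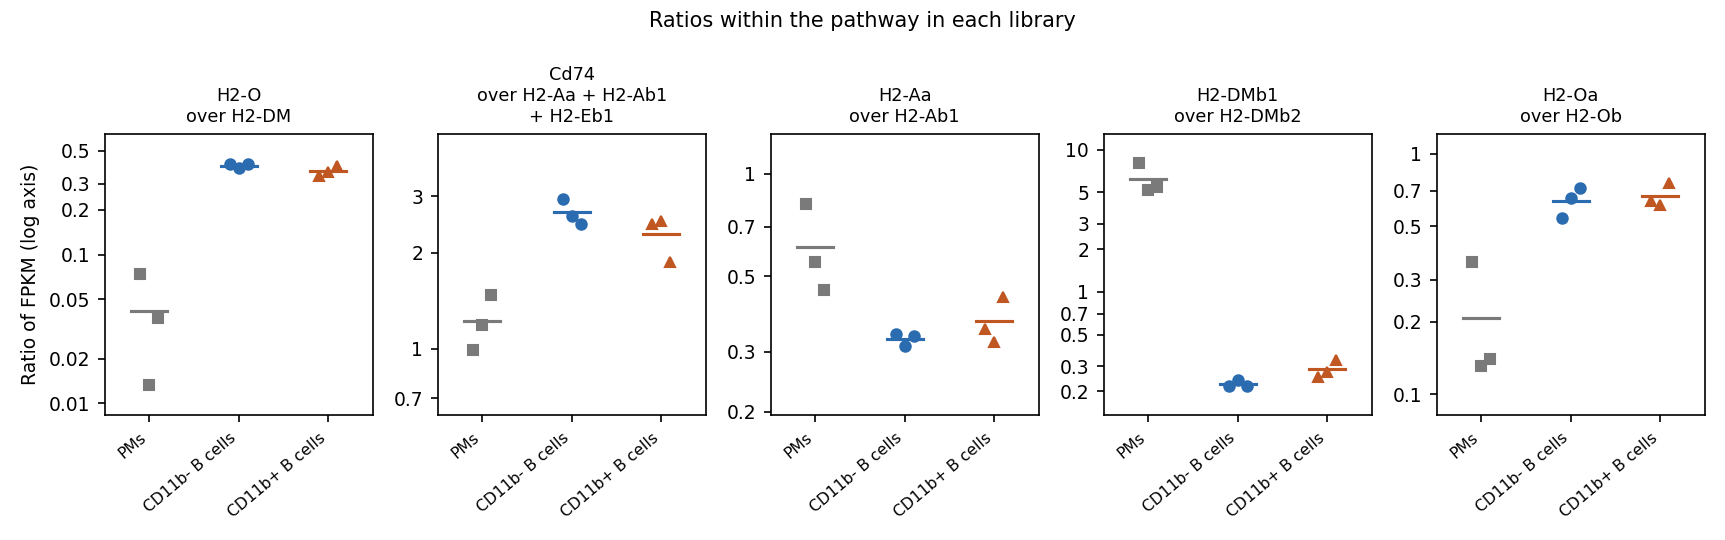
Ratios of FPKM between members in each library (log axes), with squares for PMs, circles for CD11b- B cells, triangles for CD11b+ B cells and a line at each group mean. H2-O is the sum of *H2-Oa* and *H2-Ob*, and H2-DM the sum of *H2-DMa*, *H2-DMb1* and *H2-DMb2*. The ratio of *H2-DMb1* to *H2-DMb2* is 5.23 or more in PMs and 0.333 or less in every B cell library.

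The distance between PMs and B cells differed among the members when each PM library was set against the mean of CD11b- B cells, beside the same for 16 B cell markers. The markers stood at a median of 1.64, 0.799 and 0.788% in the PM libraries, and the highest was *Bank1*, which encodes a B cell scaffold protein, with 17.6, 7.49 and 6.61%. *H2-Oa* was at 2.25, 0.298 and 0.648%, with 3, 15 and 11 of the 16 markers at or above it. *H2-DMb2* was at 1.66, 3.81 and 2.702%, with 8, 1 and 1 markers at or above it, and *H2-Ob* at 4.02, 1.45 and 2.94%, with 2, 2 and 1. *H2-Oa* thus lay among most of the markers, and *H2-DMb2* and *H2-Ob* mostly near their upper end. *Ciita* was at 12.3, 10.5 and 8.44%, above all markers except *Bank1* in PM replicate 1. *Cd74* was at 6.56, 16.04 and 13.7%, with 2, 0 and 0 markers at or above it, *H2-Ab1* at 11.6, 27.0 and 22.2%, with 1, 0 and 0, and *H2-Aa* at 29.1, 45.3 and 31.0%. *H2-DMa* and *H2-DMb1* were at 39.9 to 73.3% and 59.0 to 88.0%, above all 16 markers in every PM library. PM replicate 1, which had the most B cell marker RNA, thus had the lowest level of *Cd74* and of the presenting chains among PMs.

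**Figure D4:**
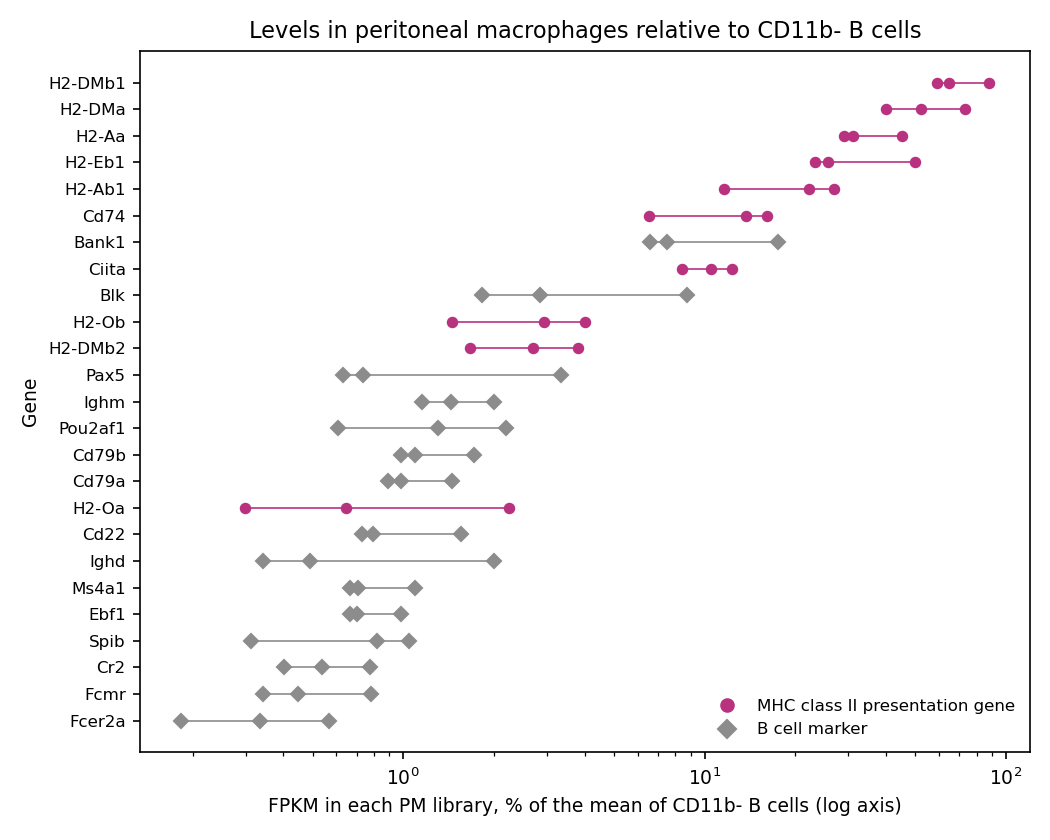
FPKM in each of the 3 PM libraries as a percentage of the mean of the 3 CD11b- B cell libraries (log axis), for the 10 genes (circles) and 15 of the 16 B cell markers (diamonds), in the order of their mean. A line joins the 3 libraries of a gene. *H2-Oa* lies among the B cell markers, *H2-Ob* and *H2-DMb2* lie toward their upper end, and *H2-DMa* and *H2-DMb1* lie farthest to the right.

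Genes known to switch *Ciita* on or off were taken as a list of 12. In CD11b- B cells 5 were called higher than in PMs and 1 was called lower (median log2 fold change 0.52, against 0.24 over all genes), and 7 higher and 1 lower in CD11b+ B cells (1.23, against 0.25). Over all genes 25.8 and 21.5% were called higher, and 11 and 8.78% lower. *Pax5*, which keeps B cell identity, *Irf8* and *Irf4*, interferon regulatory factors of B and myeloid cells, had the largest called changes on the log2(FPKM + 1) scale in CD11b- B cells, at 4.57, 2.77 and 1.93. *Socs1*, which encodes an inhibitor of cytokine signalling, came next at 1.81 and was called in 12 of 17 alternatives for CD11b- B cells, but not without PM replicate 1 or 2 or CD11b- replicate 2, with median-ratio scaling, or with no filter on FPKM. *Spi1*, which encodes the myeloid and B cell factor PU.1, was the only one called lower, with an FPKM of 69.6, 132 and 88.8 in PMs, 40.6, 40.2 and 51.1 in CD11b- B cells, and 38.4, 42.1 and 32.7 in CD11b+ B cells. *Irf2*, another interferon regulatory factor, was also lower in all B cell libraries than in all PM libraries, without passing the test (log2 fold change -0.68 in CD11b- and -0.79 in CD11b+ B cells, adjusted p = 0.0884 and 0.0798 by limma). It was called in 3 and 5 of 17 alternatives, edgeR, DESeq2 and median-ratio scaling among them. In the CD11b+ group the change next in size to that of *Pax5* was that of *Zbtb32*. Between the B cell groups 0 of the 12 were called, beside 0.0689% higher and 0% lower over all genes.

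Repressors and inhibitors of *Ciita* among these 12 were looked at after their values had been seen, and they did not go one way between the B cell groups. *Zbtb32*, a repressor that acts with Blimp-1 on *Ciita* in B cells, had an FPKM of 0.330, 3.34 and 3.30 in PMs, 5.25, 3.57 and 1.496 in CD11b- B cells, and 55.7, 32.4 and 19.9 in CD11b+ B cells. The CD11b+ libraries were all above the others, but the log2 fold change against CD11b- B cells, 3.04 (95% confidence interval 2.06 to 4.02), had an adjusted p of 0.0765 by limma. It passed in 6 of 17 alternatives, among them edgeR (adjusted p = 0.0482) and DESeq2 (5.78e-11), over a range of 5.78e-11 to 0.460. *Prdm1*, which encodes Blimp-1, had 0.0199, 0.153 and 0.258 in PMs, 0.0859, 0.324 and 1.99 in CD11b- B cells, and 2.21, 1.41 and 1.51 in CD11b+ B cells, where the high CD11b- library is that with the precursor transcripts. It was not called between the B cell groups (log2 fold change 0.73, adjusted p = 0.687 by limma) nor in any of 17 alternatives. *Bcl6*, a repressor of germinal centre B cells, had 9.88, 11.6 and 8.86 in CD11b- and 7.32, 9.11 and 6.31 in CD11b+ libraries, with overlap (log2 fold change -0.38, limma adjusted p = 0.680). *Socs1* had 1.97, 2.72 and 9.77 in CD11b- and 3.57, 3.95 and 5.76 in CD11b+ libraries, with means of 4.82 and 4.43 (log2 fold change 0.12, limma adjusted p = 0.940). Without CD11b- replicate 3, the library with the precursor transcripts, the ratio of the CD11b+ to the CD11b- mean went from 0.918 to 1.89. *Ciita* itself, with means of 43.3 ± 2.88 and 44.0 ± 3.39 (SD, n = 3), differed by less than the spread between libraries. Plasma cell markers, of which *Prdm1* is one, summed to 276 to 687 in the CD11b+ and 107 to 190.4 in the CD11b- B cells, and their part in these values was not tested.

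Of the proteases that cut antigen and the invariant chain, several cathepsins were lower in B cells. Of 11 genes, the test against PMs called 3 higher and 5 lower in the CD11b- group (median log2 fold change -0.58, against 0.24 over all genes), and 2 higher and 5 lower in CD11b+ B cells (-0.60, against 0.25). The share called lower over all genes was 11 and 8.78%, and the share called higher was 25.8 and 21.5%. *Ctss*, the cathepsin S that removes the invariant chain in B cells and dendritic cells, had an FPKM of 1168, 1526 and 1487 in PMs, 502, 499 and 379 in CD11b- B cells, and 518, 493 and 548 in CD11b+ B cells. *Ctsl*, the cathepsin L that serves in thymic epithelium and macrophages, had 24.7, 31.3 and 26.0 in PMs, 0.462, 0.446 and 0.462 in CD11b- B cells, and 0.525, 0.495 and 1.48 in CD11b+ B cells. Both were separate between PMs and B cells, and the log2 fold change for CD11b- B cells against PMs was -1.599 (adjusted p = 0.00129 by limma) for *Ctss* and -4.27 (5.25e-06) for *Ctsl*. *Ctsd* and *Ctsb*, lysosomal cathepsins abundant in macrophages, were lower, with log2 fold changes of -4.84 and -3.43 in CD11b- B cells and of -4.37 and -3.63 in CD11b+ B cells. *Napsa*, an aspartic protease, went the other way, with 11.2 to 14.9 in PMs and 209 to 252 in the B cell libraries. *Ifi30*, the thiol reductase of antigen processing, was called higher in both (log2 fold change 0.77 and 0.82, adjusted p = 0.0482 and 0.0395 by limma), but in 7 and 6 of 17 alternatives only, and not with median-ratio scaling, edgeR or DESeq2. *Ctsc*, cathepsin C, was called higher in CD11b- B cells (0.71, adjusted p = 0.0445 by limma) and in 5 of 17 alternatives. None of the 11 was called between the B cell groups, as with nearly all genes, and their median log2 fold change there was 0.05, against 0.03 over all genes.

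Genes that set how long class II molecules stay at the surface were split. Of 8, in both comparisons with PMs 4 were called higher and 3 lower, beside 25.8 and 11% of all genes in CD11b- B cells and 21.5 and 8.78% in CD11b+ B cells. The median log2 fold change of the 8 was 0.49 and 0.54, against 0.24 and 0.25 over all genes. With median-ratio scaling 2 were called higher and 4 lower in the CD11b- comparison, *Cd82* and *Marchf1* no longer being called, and 4 and 4 in the CD11b+ comparison. Over all genes this scaling gave 15.9% higher and 15.04% lower, and 12.6 and 12.2%. *Cd83*, which protects class II molecules from ubiquitination by MARCH1, had an FPKM of 1.47, 3.81 and 1.599 in PMs, 231, 219 and 129 in CD11b- B cells, and 185, 161 and 93.5 in CD11b+ B cells. The libraries with the precursor transcripts had the lowest B cell values, and the B cell groups overlapped. The ratio of the means to PMs was 84.2 in CD11b- B cells (log2 fold change 5.91, limma adjusted p = 1.08e-05) and 63.9 in CD11b+ B cells (5.50, 1.72e-05). *Marchf1*, which encodes MARCH1, was 2.75-fold and 2.99-fold higher, whereas its relative *Marchf8* was at 5.03 to 7.06 in PMs and at 0.148 or less in every B cell library. Tetraspanins, membrane organizers that associate with class II molecules, went both ways. *Cd37* was 4.18-fold and 3.76-fold higher and *Cd82* 3.16-fold and 3.49-fold higher in CD11b- and CD11b+ B cells, whereas *Cd9* had log2 fold changes of -5.51 and -5.01 and *Cd63* of -4.57 and -3.33. Between CD11b+ and CD11b- B cells *Cd63* was at 2.05, 2.19 and 1.37 against 0.179, 0.0700 and 0.373, with an adjusted p of 0.168 by limma and of 1.79e-05 by DESeq2, the only one of 17 alternatives to call it.

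**Figure D5:**
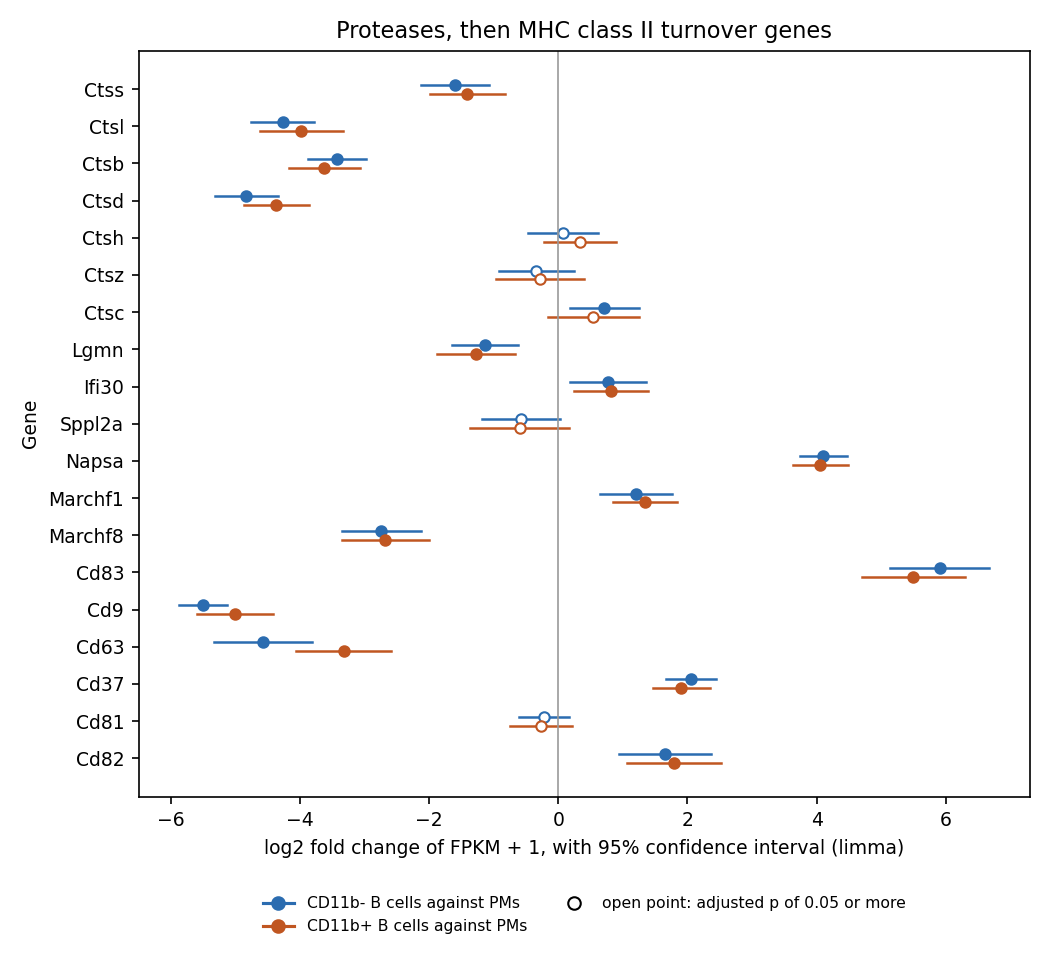
Log2 fold change of FPKM + 1 with its 95% confidence interval (limma, 3 libraries against 3) for 11 protease genes, from *Ctss* to *Napsa*, and 8 genes of class II turnover, from *Marchf1* to *Cd82*, in CD11b- and CD11b+ B cells against PMs. Filled points have an adjusted p under 0.05. *Ctsd*, *Ctsl* and *Ctsb* lie far to the left, and *Napsa* and *Cd83* far to the right, in both comparisons.

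Presentation is read by T cells together with costimulatory and coinhibitory signals, and of 8 genes for such molecules 4 were called higher in each B cell group than in PMs, beside the 25.8 and 21.5% of all genes. Their median log2 fold change was 1.30 in CD11b- B cells, over 7 genes tested, and 1.05 in CD11b+ B cells, against 0.24 and 0.25. *Icosl*, the ligand of ICOS, was 16.96-fold and 17.1-fold higher by mean FPKM, *Cd274*, which encodes the coinhibitory ligand PD-L1, 5.50-fold and 5.30-fold (8.52-fold and 8.22-fold without PM replicate 1), and *Cd40*, the receptor for T cell help, 3.59-fold and 3.03-fold. *Pdcd1lg2*, which encodes PD-L2, the other ligand of the inhibitory receptor PD-1, had an FPKM of 0, 0 and 0.404 in PMs, 1.18, 2.09 and 2.13 in CD11b- B cells, and 3.07, 2.67 and 4.17 in CD11b+ B cells. Its log2 fold change was 1.30 (adjusted p = 0.00768 by limma, called in 14 of 17 alternatives) and 1.93 (0.00244, 16 of 17), and edgeR called it in neither comparison (adjusted p = 0.148 and 0.0704). The costimulatory *Cd80* and *Tnfsf9*, which encodes 4-1BB ligand, were called lower in CD11b- B cells (log2 fold change -2.25 and -1.84, adjusted p = 0.00707 and 0.00294 by limma) and were not called in CD11b+ B cells. Over all genes 11 and 8.78% were called lower in these comparisons with PMs. Between the B cell groups *Cd80* had an FPKM of 4.93, 3.13 and 0.682 in CD11b+ and 0.599, 0.364 and 0.581 in CD11b- libraries, with an adjusted p of 0.614 by limma and of 0.00469 by DESeq2, the only one of 17 alternatives to call it. Between these groups 0 of the 8 were called, beside 0.0689% higher and 0% lower over all genes. Genes induced by interferon gamma, the cytokine that turns *Ciita* on in macrophages, served for comparison. Of 12, 3 were called higher in both B cell groups than in PMs, namely *Gbp4*, *Ifi47* and *Irgm1*, with means 116-fold, 6.22-fold and 3.33-fold above PMs in CD11b- B cells, and *Gbp3* was called lower in CD11b- B cells. The share called higher is near that of all genes, 25.8 and 21.5%. The median log2 fold change of the list was 0.35 in CD11b- B cells, over 11 genes tested, and 0.32 in CD11b+ B cells, beside the 0.24 and 0.25 of all genes, and between the B cell groups it was -0.15 with 0 called.

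The genes whose pattern over the 9 libraries was most like that of *Ciita* were sought among the 12492 genes whose mean FPKM was 1 or more, by the root mean square difference of log2(FPKM + 1) after centring each gene. In places 2 to 5 were *Marveld2* at 0.172, *Gm28053*, *Septin6* and *Psd4* at 0.186. *Marveld2*, which encodes a tight junction protein, had a mean FPKM of 0.119 in PMs, 7.09 in CD11b- B cells and 7.396 in CD11b+ B cells. The added 1 shrinks differences from values near 0, and on the FPKM scale *Marveld2* and *Gm28053*, with 0.0708 in PMs and 6.35 in CD11b- B cells, differed by far more than the 9.61-fold of *Ciita*. *Cd74* was in place 272 in likeness to *Ciita*, *H2-Ab1* in 423, and *H2-Oa* in 7804, the last of the members. For *H2-Ob* the most alike were *Tbc1d10c* at 0.173, *Bend5*, *Pax5*, *Gimap1* and *Ppp1r16b* at 0.295, with *H2-Oa* in place 66 and *H2-DMb2* in 124. These are descriptions over 9 libraries in 3 groups.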

How the data were processed

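RNA from 9 libraries, 3 per group, was made into cDNA with the SMART-seq HT kit and sequenced. Per the labels, the authors trimmed reads with Trim Galore 0.4.4, Trimmomatic 0.36 and cutadapt 1.16, aligned them with STAR 2.7.2b and counted them with featureCounts 1.6.1, and DESeq2 1.20.0 is also named. The study's methods give GRCm38 for the mapping, and the labels also name GRCm39. The gene positions in the FPKM table differ from those on GRCm38 (*H2-Aa* starts at 34501718 there and at 34282744 on GRCm38), so the positions printed here are from GENCODE M21 on GRCm38. The authors deposited FPKM for 55322 genes, and a normalized signal (counts divided by size factors) for 11063 genes that was used only to check the libraries. FPKM is relative to all reads on genes of a library, so a group with a different RNA composition shifts as a whole.

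Whole reads were recovered from the deposited FPKM and gene lengths for 100% of values within 0.05 read. log2(FPKM + 1) was tested where mean FPKM over the groups compared reached 0.05, with limma 3.58.1 (R 4.3.3) fitted separately per comparison and Benjamini-Hochberg adjustment over all genes. A log2 fold change on this scale understates the change of low genes. edgeR 4.0.16 and DESeq2 1.42.0 on the recovered reads, other pseudocounts, filters, scalings and fits, and each library left out were alternatives. The test was tried on simulated data with 200 changed genes, and of changes of 1 and 2 on the log2 scale it recovered 12 and 90% for CD11b- B cells and 5 and 81% for CD11b+ B cells against PMs. Python 3.11.15, SciPy 1.17.1 and Biopython 1.88 were used for sequences and tables. Values are mean ± SD. Intervals are 95% confidence intervals. With 3 libraries per group an exact permutation test cannot go below 0.1.

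The 10 genes and the other lists were chosen with earlier results of these data known. The genes named by rule were the 10 members, the list genes called between the B cell groups, up to 3 list genes with the largest called change in each direction against PMs (markers of cell types are mostly given as sums), and the 5 genes most like *Ciita* and *H2-Ob*. *Prdm1*, *Irf2*, *Socs1*, *Rfxap*, *Nfya*, *Nfyc*, *Bcl6*, *Ctss*, *Marchf1*, *Bank1*, *Itgam* and the genes overlapping a member were named after their values had been seen. The gene most like *Ciita* and 1 B cell marker are not reported here by name.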

Additional observations from a re-analysis of the deposited data

How the results depend on the processing

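Of the 10 genes 0 were called between the B cell groups in any of 17 alternatives, and between 7 and 10 in each comparison with PMs. *Cd74*, *H2-Aa*, *H2-Ab1*, *H2-DMb2*, *H2-Oa*, *H2-Ob* and *Ciita* were called against PMs in all 17. Genes called over all genes between the B cell groups ranged from 2 higher without a filter to 328 higher and 64 lower with DESeq2, against 15 and 0. Against PMs the calls of edgeR were 3200 higher and 3163 lower in CD11b- B cells and 2850 and 2758 in CD11b+ B cells, and DESeq2 called 3702 and 4014, and 3550 and 3404. *H2-DMb1* in CD11b- B cells against PMs turned to -0.052 under median-ratio scaling, -0.037 with edgeR and -0.059 with DESeq2. As these scale libraries by the typical gene, they shift all B cell values down together. Between the B cell groups, without both libraries numbered 3 (chosen after seeing the data), the log2 fold change turned to -0.017 for *H2-Ab1*, -0.027 for *H2-DMb2*, -0.092 for *H2-Oa* and 0.018 for *Ciita*. Leaving out 1 library gave -0.033 to 0.13 for *H2-Ab1*, -0.012 to 0.12 for *H2-DMb2*, -0.13 to 0.14 for *H2-Oa*, -0.11 to 0.035 for *H2-Ob* and -0.085 to 0.019 for *Ciita*. None of these was called, and the cause was not tested. With median-ratio scaling the calls against PMs were 3 higher and 2 lower (CD11b-) and 6 and 2 (CD11b+) of the regulators of *Ciita*, 1 and 6 of the proteases in both, and 4 and 3, and 4 and 2, of the costimulatory and coinhibitory molecules, beside 15.9 and 15.04% (CD11b-) and 12.6 and 12.2% (CD11b+) of all genes. By summed FPKM in place of reads, the share of the 10 genes differed by -0.520 percentage points between the B cell groups and by 3.58 and 3.06 from PMs, since FPKM weights reads by length.

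The replicate numbers were not shown to pair the samples. They come from the sample titles, and the column names carry other numbers, 1, 3 and 5 for CD11b-, 1, 2 and 5 for CD11b+ B cells and 2, 3 and 4 for PMs. The B cell libraries titled 1 and 3 thus also share a column number, and those titled 2 do not, and nothing in the sources used here says that a number marks a mouse. Deviations of B cell libraries with the same number had correlations of 0.284, -0.0193 and 0.206, and those of PMs with B cells lay between -0.140 and 0.0963. CD11b+ replicate 2 correlated best with CD11b- replicate 1 (0.143). With the replicate number as a block, 0, 9 and 10 of the 10 genes were called in CD11b+ against CD11b- B cells, CD11b- B cells against PMs and CD11b+ B cells against PMs, and over all genes 16 were higher and 0 lower, 4948 and 2177, and 4111 and 1743.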
